A study of Mus musculus with 2 samples.

Results

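The genes described here are those of the mouse major histocompatibility complex (MHC, called H2 in the mouse) and of the machinery that loads its molecules with antigen. They were chosen by name: 42 rows of the deposited tables have a symbol that starts with H2-, and 14 further genes were listed, which gives 56 of 22558 genes. RNA sequencing was done on 2 libraries of untreated cells that had been dissociated from breast tumours and sorted by flow cytometry at once. The mice were of the inbred strain FVB. The first group is tumour-initiating cells (TIC), the fraction that gives rise to new tumours, and the second is non-tumorigenic cells (NTC). Both groups share the strain and the tumour origin. The sources used here do not give the number or age of the animals, whether they were pooled, or the markers of the gate. Each group is 1 library, so no difference below has a replicate check, a test or a p-value. Every difference is between these libraries.

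MHC class I molecules sit on nearly all nucleated cells and show short peptides from inside the cell to cytotoxic T cells. A heavy chain pairs with the light chain beta-2 microglobulin and with a peptide that the proteasome cuts, the TAP transporter pumps into the endoplasmic reticulum, and tapasin helps to load. MHC class II molecules are made mainly by dendritic cells, macrophages and B cells and show peptides from outside the cell to helper T cells. NLRC5 is the main co-activator of class I genes and CIITA that of class II genes, and interferons raise the expression of both classes.

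Levels are in FPKM, fragment counts scaled to transcript length and sequencing depth, and where 2 levels stand together the TIC value comes first. A gene was called measured at a mean of at least 1 FPKM over both libraries, which 32 of the 56 genes reached. The log2 ratio is that of TIC to NTC with 1 FPKM added to each, which understates differences of low genes. By the low values of short receptor genes, a level of 1 FPKM over 1 kb stood for roughly 21.0 reads in TIC against 21.6 in NTC, and these depths were used to estimate reads per gene. A counting interval is the 95% exact interval of the ratio of TIC to NTC from these estimated reads. It covers counting error only, not the variation between animals or sorts or from amplifying the cDNA, nor the rough estimate of depth.

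The light chain and both classical heavy chains of class I had higher values in TIC, while Tap2, tapasin and the immunoproteasome subunits Psmb8 and Psmb10 had lower values. Of the 32 measured genes, B2m, Mr1, H2-M3, H2-Q7, Nlrc5 and Cd74 passed 2-fold on the TIC side, 6 in all. This is 18.8% of them, against 14.6% of the 12004 measured genes of the whole table. On the NTC side 3 passed, Cd1d1, Tap2 and Tapbp, which is 9.38% against 13.8% in the whole table. Neither share is far from that of all genes, so nothing is read from the counts. The remaining 23 lay within 2-fold. The median log2 ratio of the 32 genes was -0.01, against -0.16 for all measured genes, and centring on the median gene turned it to 0.16. The 56 genes together held 1973 FPKM in TIC and 1248 in NTC, which is 0.592% and 0.332% of the FPKM of all genes. B2m, H2-K1 and H2-D1 made up 85.6% of that sum in TIC and 76.2% in NTC.

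**Figure D1:**
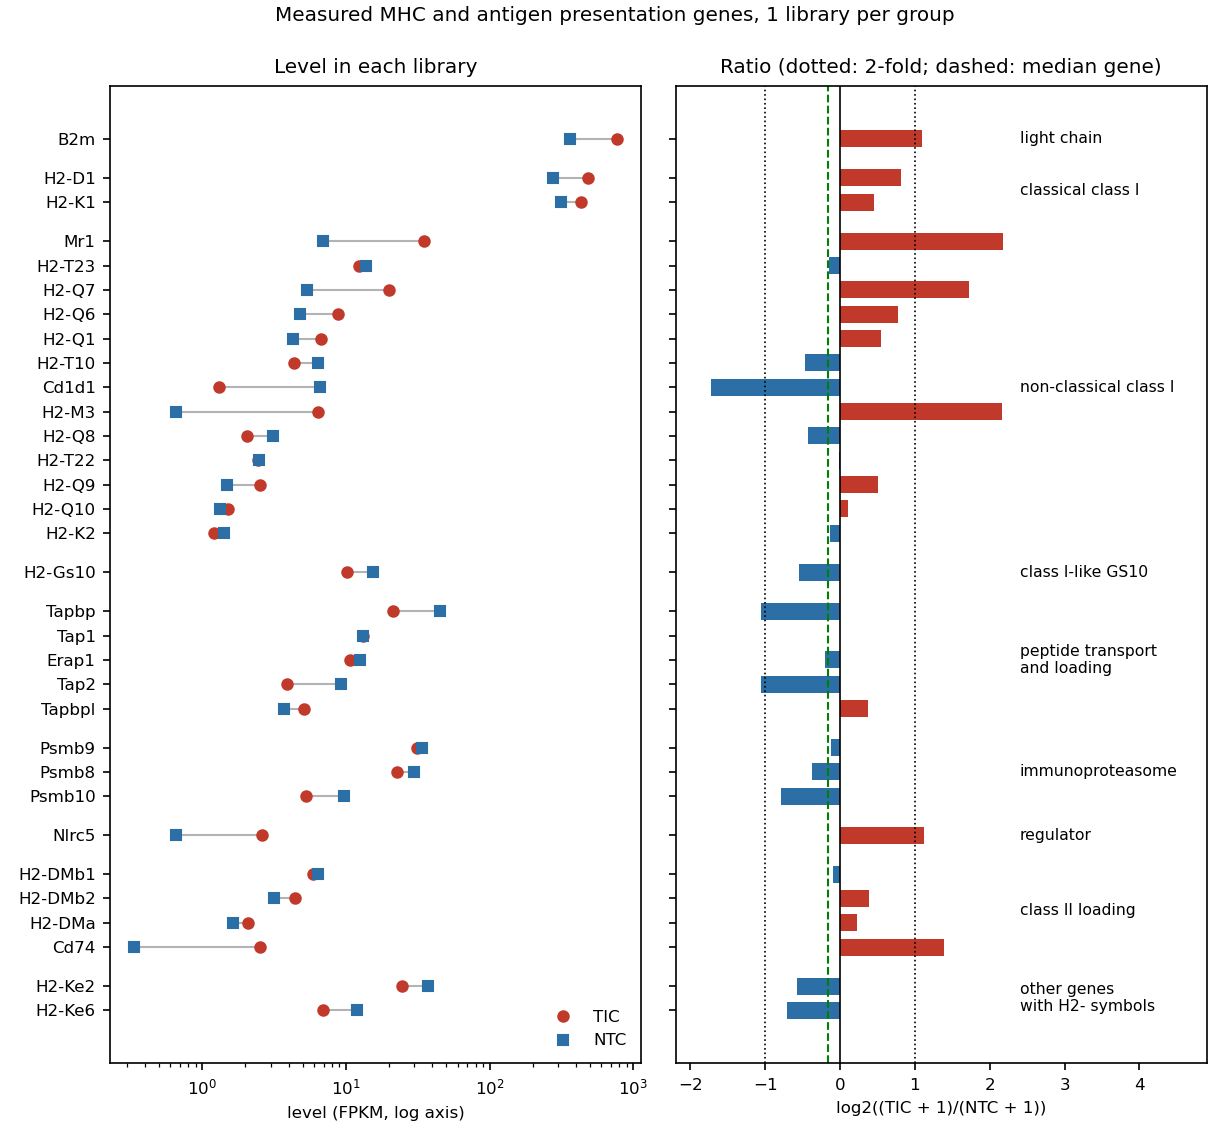
The 32 measured genes by role: left, the FPKM in each library on a log axis (circles TIC, squares NTC), and right, the log2 ratio of TIC to NTC with 1 FPKM added (dotted lines 2-fold, dashed line the median of all measured genes, -0.16). The light chain and both classical heavy chains lie to the right of 0, and Tap2 and Tapbp lie to the left of the 2-fold line.

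B2m encodes beta-2 microglobulin, the light chain of every classical class I molecule. It stood at 772 FPKM in TIC against 360.4 in NTC, a ratio of 2.14 (counting interval 2.08 to 2.21) from about 13943 and 6698 reads. It ranked 27th among all genes in TIC and 110th in NTC. In the files its row spans chromosome 2, 121945844 to 122011925 (build mm9), a locus of 66.1 kb that Patl2 and Trim69 share.

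The classical heavy chains, which present peptides to CD8 T cells, differed in the same direction but within 2-fold. H2-D1 reached 485 FPKM in TIC against 275 in NTC, a ratio of 1.77 (1.73 to 1.81), and H2-K1 had 432 against 316, a ratio of 1.37 (1.33 to 1.401). The deposited description of the H2-K1 row places it in multiple gene identifiers, as it does for H2-K2, H2-Q6 and H2-Q9 among the measured genes. H2-D1 was the higher heavy chain in TIC, at 1.12 times the level of H2-K1, and the lower in NTC, at 0.870 times. Both genes lie on chromosome 17, H2-K1 at 34132957 to 34137278 and H2-D1 in a locus of 35400039 to 35462354 that it shares with H2-Q1 and LOC547349 (build mm9). The level of B2m was 0.842 times that of H2-K1 and H2-D1 together in TIC and 0.610 times in NTC, so the light chain differed more than these classical heavy chains.

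The promoters of these genes are shown because the classical class I genes and B2m were higher together and are known targets of NLRC5, which acts through a module with an X2 box, related to the cyclic AMP response element, and a CCAAT box. The sequences are from RefSeq (GRCm38.p6), 170 bases from 150 before the annotated start. Capitals mark matches on either strand to the X2 core TGACG, the CCAAT core ATTGG, the interferon-response core GAAANNGAA and the GAS element TTCNNNGAA. H2-Q7 and H2-M3 are added as the measured class I genes of the H2 region with the largest log2 ratios, and Mr1 as a class I relative outside that region. They lie at chr2:122147537-122147706 on the plus strand (B2m), chr17:34000328-34000497 on the minus strand (H2-K1, the first of 2 annotated starts), chr17:35262944-35263113, chr17:35439005-35439174 and chr17:37270084-37270253 on the plus strand (H2-D1, H2-Q7, H2-M3) and chr1:155146795-155146964 on the minus strand (Mr1).
B2m: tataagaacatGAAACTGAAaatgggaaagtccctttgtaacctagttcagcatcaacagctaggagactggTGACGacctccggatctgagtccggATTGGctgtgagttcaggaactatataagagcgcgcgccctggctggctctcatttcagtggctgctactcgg
H2-K1: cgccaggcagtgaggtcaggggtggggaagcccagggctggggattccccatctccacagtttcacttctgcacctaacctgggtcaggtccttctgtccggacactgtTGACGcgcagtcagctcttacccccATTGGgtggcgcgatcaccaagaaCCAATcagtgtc
H2-D1: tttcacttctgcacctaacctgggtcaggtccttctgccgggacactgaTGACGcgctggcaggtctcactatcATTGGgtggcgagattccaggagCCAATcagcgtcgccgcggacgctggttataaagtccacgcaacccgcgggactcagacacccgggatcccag
H2-Q7: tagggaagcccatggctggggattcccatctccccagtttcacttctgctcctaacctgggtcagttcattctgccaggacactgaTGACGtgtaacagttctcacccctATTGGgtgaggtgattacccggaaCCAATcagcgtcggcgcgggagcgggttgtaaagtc
H2-M3: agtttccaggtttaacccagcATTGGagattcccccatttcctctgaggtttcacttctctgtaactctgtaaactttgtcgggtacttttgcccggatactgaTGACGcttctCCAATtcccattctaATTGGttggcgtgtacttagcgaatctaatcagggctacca
Mr1: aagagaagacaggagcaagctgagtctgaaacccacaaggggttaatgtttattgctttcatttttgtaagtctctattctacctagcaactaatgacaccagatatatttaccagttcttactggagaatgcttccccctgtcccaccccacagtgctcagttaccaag

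In the first 5 of these promoters an X2 core was followed by a CCAAT core at nearly the same distance. From first base to first base it was 25 bases in B2m, H2-K1, H2-D1 and H2-M3, and 24 in H2-Q7. A CCAAT core that starts 20 to 30 bases after an X2 core was found in 10 of the 38 genes of the set that have a promoter in the table, and in 0.918% of all 27025 genes of the table (26.3% against 0.918%). The other 5 of the 10 were H2-Aa of class II and H2-M10.1, H2-M10.3, H2-M10.4 and H2-M10.5, all of which were below 1 FPKM on average here. Either strand was counted, and in these H2-M10 genes both cores of the pair lay on the opposite strand from those of B2m. Their distance was 30 bases, the edge of the range, so the share of 26.3% includes an unlike arrangement. This spacing was sought after the sequences had been seen, and several of these genes are copies of each other. Over the whole 300-base windows of the table, from 250 before to 50 after the start and so longer than the sequences printed, the X2 core was in the promoters of 14 of the 38 genes (23.05% of all genes), the CCAAT core in 31 (41.1%), the interferon-response core in 4 (9.76%) and the GAS element in 4 (9.55%). Besides B2m, H2-K1, H2-D1, H2-Q7 and H2-M3, the measured genes with an X2 core were Tap1, Psmb9 and H2-T22. Their ratios of TIC to NTC were 1.00, 0.920 and 0.981, and the Tap1 and Psmb9 windows share 275 bases. Among the measured class I genes of the H2 region with a promoter here, H2-Q6, H2-Q10 and H2-T23 had no X2 core. Their ratios were 1.85, 1.14 and 0.898, and that of H2-Q6 was above those of H2-D1 and H2-K1. The 300-base Mr1 window held none of the 4 motifs. A match is a run of letters and not a measured binding site.

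**Figure D2:**
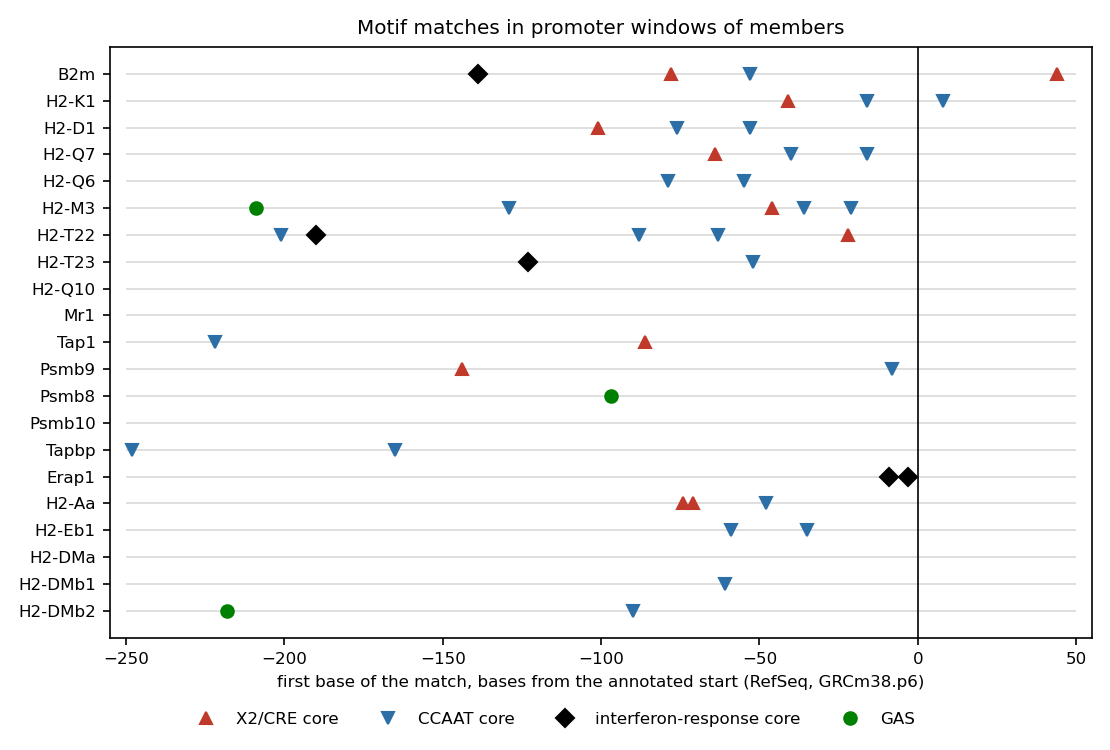
Motif matches in the promoter windows of 21 genes of the set, by the distance of the first base of each match from the annotated start (bases, RefSeq GRCm38.p6). In B2m, H2-K1, H2-D1, H2-Q7 and H2-M3 a triangle pointing up (X2 core) is followed by one pointing down (CCAAT core) 24 or 25 bases later. The Mr1 window has no match.

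Nlrc5, the co-activator of class I genes, was also higher in TIC, and its part in the levels of other genes was not tested. Nlrc5 had 2.61 FPKM in TIC against 0.659 in NTC, a ratio of 3.97 (3.20 to 4.95) from about 416 and 108 reads. Its log2 ratio of 1.12 was 0.43 with 5 FPKM added in place of 1. Ciita, its class II counterpart, had 0.198 against 0.413 FPKM and was below the level called measured. The factors that bind the module with these co-activators lay within 2-fold, as did 71.6% of all measured genes. Of 8 genes for the RFX, NF-Y and CREB or ATF1 subunits, 6 had higher values in TIC, where 40.9% of all measured genes did, with a median log2 ratio of 0.15. Rfx5 had 7.88 against 4.68 FPKM and Rfxank 4.34 against 2.47, whereas Atf1 had 20.7 against 28.9 and Nfyc 12.4 against 14.9.

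The non-classical class I genes, which present special ligands or bind receptors of innate lymphocytes, differed among themselves. Of 29, 13 were measured, of which 3 passed 2-fold on the TIC side (14.6% of all measured genes) and 1 on the NTC side (13.8% of all). Mr1, which presents vitamin B metabolites of microbes to mucosal-associated invariant T cells, had 35.0 against 6.94 FPKM, a ratio of 5.05 (4.51 to 5.65). H2-M3, which presents peptides with a formylated methionine, had 6.43 against 0.654 FPKM, a ratio of 9.83 (6.29 to 16.7) from about 194 and 20 reads. H2-Q7, a Qa-2 antigen, had 19.9 against 5.33 FPKM, a ratio of 3.73 (3.14 to 4.41). Cd1d1 went the other way. It presents lipids to natural killer T cells, and it had 1.31 FPKM in TIC against 6.65 in NTC, a ratio of 0.197 (0.146 to 0.266).

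The Q genes other than H2-Q7 lay within 2-fold or near the lower limit. H2-Q6 had 8.83 against 4.76 FPKM, H2-Q1 6.72 against 4.30, H2-Q9 2.54 against 1.49 and H2-Q10 1.52 against 1.33. H2-Q8, with 2.06 against 3.13 FPKM, was lower in TIC. H2-Q6 to H2-Q9 are near copies of each other: 34.9% of the 50-base windows of the H2-Q7 transcript and 32.0% of those of H2-Q6 also occur in transcripts of other genes, and H2-Q9 has the same locus as H2-Q7 in the files. The sum of these 4 rows was 33.3 FPKM in TIC against 14.7 in NTC, a ratio of 2.26.

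The 3 measured T genes lay within 2-fold. H2-T23 encodes Qa-1, the ligand of the CD94 and NKG2A receptor of natural killer cells, and it had 12.4 against 13.8 FPKM, a ratio of 0.898 (0.781 to 1.03) whose counting interval includes 1. H2-T10 had 4.36 against 6.44 FPKM and H2-T22 had 2.45 against 2.49. These code for ligands of gamma delta T cells and share much sequence (42.9% of the H2-T10 windows and 44.7% of those of H2-T22 occur in other genes), and with H2-T9 they summed to 7.26 against 10.1 FPKM. H2-K2, with 1.21 against 1.41 FPKM, and H2-Gs10, a class I-like gene with 10.1 against 15.3, were also lower in TIC by less than 2-fold. H2-T22, H2-T23 and H2-K2 had log2 ratios above 0 after centring on the median gene. For comparison, 8.79% of the windows of H2-K1 and 14.3% of those of H2-D1 occur in other genes, and none of B2m, Mr1 or Nlrc5 and 0.576% of H2-M3. For Cd1d1 the share was 25.8%, all of it found in Cd1d2, and for H2-T23 it was 28.8%.

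Apart from Tapbpl, the genes that carry peptides to class I or load them did not share the higher values of the heavy and light chains. Tapbp, tapasin, which bridges TAP and the empty class I molecule, had 21.4 FPKM in TIC against 45.4 in NTC, a ratio of 0.471 (0.440 to 0.503). Tap2 had 3.92 against 9.21 FPKM, a ratio of 0.426 (0.369 to 0.489), whereas Tap1, the other chain of the same transporter, had 13.3 against 13.2, a ratio of 1.00 (0.910 to 1.10). Tap1 was thus at 3.38 times the level of Tap2 in TIC and at 1.44 times in NTC. Both ratios of Tapbp and Tap2 were just past 2-fold, and after centring on the median gene they were within it (log2 ratios of -0.89 for each). Erap1, which trims peptides in the endoplasmic reticulum, had 10.7 against 12.5 FPKM, and Tapbpl, a tapasin relative that edits peptides, had 5.10 against 3.70. The chaperones and enzymes that fold class I, listed together with the aminopeptidase Lnpep, showed little difference, with a median log2 ratio of 0.03. All 8 lay within 2-fold, as did 71.6% of all measured genes. Ganab had 79.3 against 64.1 FPKM and Calr, calreticulin, 300.2 against 248, while P4hb had 264 against 290.5 and Lnpep 15.7 against 16.5.

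The immunoproteasome, whose 3 catalytic subunits replace those of the standard proteasome and favour peptides that fit class I, had lower values in TIC within 2-fold, except Psmb9 after centring on the median gene (log2 ratio 0.05). Psmb9 had 31.1 FPKM against 33.8 in NTC, a ratio of 0.920 (0.838 to 1.01), Psmb8 22.5 against 29.7 (0.760, 0.691 to 0.834) and Psmb10 5.24 against 9.75 (0.538, 0.436 to 0.659). The standard subunits were lower in TIC by a similar amount, so the balance between both forms was close in the libraries. Psmb8 made up 28.6% of Psmb8 and Psmb5 together in TIC and 25.9% in NTC, Psmb9 32.1% and 27.2% of Psmb9 and Psmb6, and Psmb10 6.79% and 8.97% of Psmb10 and Psmb7. Of the 14 genes of the standard core, 12 were lower in TIC, where 59.1% of all measured genes were lower. None of them was lower by 2-fold (13.8% of all). The median log2 ratio was -0.44 against -0.16 for all (Psma7 189 against 297 FPKM and Psma6 60.3 against 91.0, with Psmb4 at 86.7 against 76.3 and Psmb3 at 21.3 against 20.2). The 4 activator genes were lower too, with a median of -0.82. Psme1, a subunit of the interferon-inducible PA28 activator, had 61.2 against 182 FPKM, and Psme2, its partner, 1.83 against 4.14.

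Genes that carry interferon signals to these promoters had a median log2 ratio of -0.49, against -0.16 for all measured genes. Of 12 measured receptor and signal genes, 9 had lower values in TIC, where 59.1% of all measured genes did, and 4 were at least 2-fold lower (13.8% of all). Irf2, 1 of the 9, had a log2 ratio of -0.16, that of the median gene. Irf9 had 6.51 FPKM in TIC against 24.2 in NTC, Irf1, which acts on class I promoters directly, 4.03 against 12.6, and the receptor chain Ifnar2 34.6 against 73.9. The highest ratios among the measured genes of the list were those of Jak2 (16.3 against 11.6 FPKM) and Ifngr2 (31.3 against 22.8). Socs1, an inhibitor of this signal, was below the level called measured, with 1.02 against 0.0635 FPKM. Of the 5 NF-kB genes, whose products bind the class I enhancer, all lay within 2-fold, where 71.6% of all measured genes did. Nfkb1 had 35.5 against 19.1 FPKM and Rel 2.83 against 1.68, and Rela had 20.9 against 39.3 and Relb 2.23 against 2.97.

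**Figure D3:**
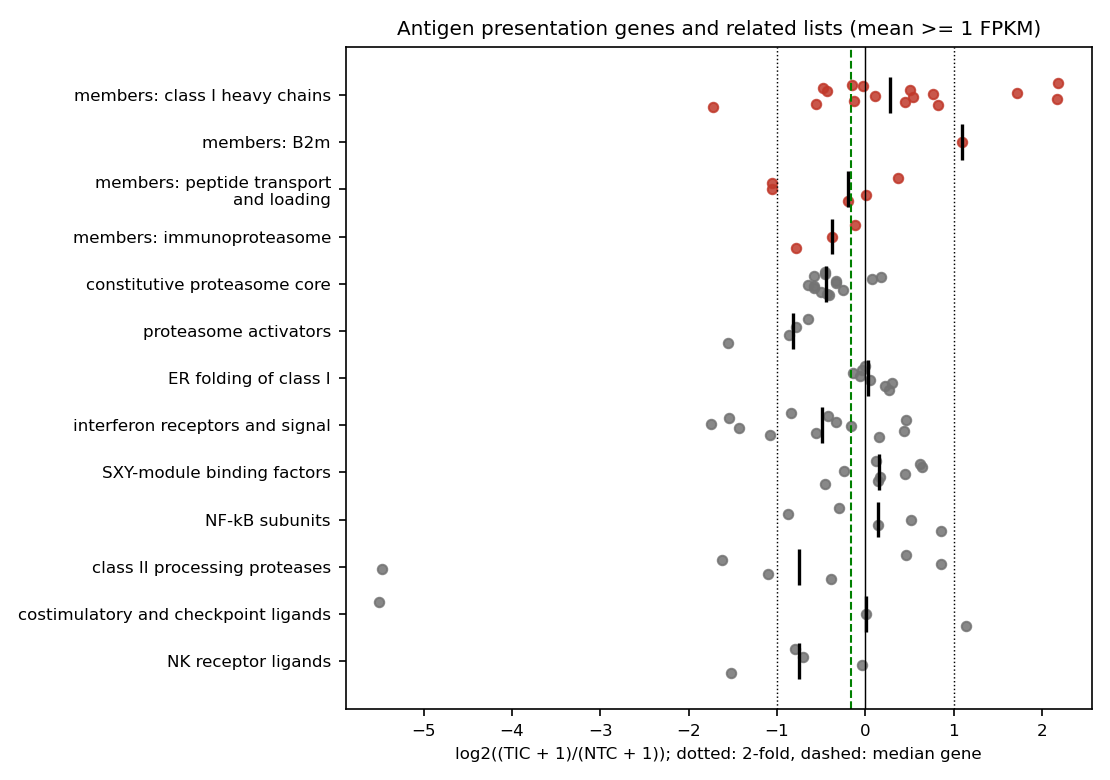
Log2 ratio of TIC to NTC (1 FPKM added) for measured genes: 1 point per gene, with black bars for the median of each list, red for genes of the set and grey for related lists. B2m lies past the upper 2-fold line and the median of the class I heavy chains is 0.28, while the medians of the proteasome activators (-0.82) and interferon genes (-0.49) lie left of the median gene.

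The class II molecules themselves were at low levels in both libraries, and none of the 5 was measured. H2-Aa, the alpha chain of the I-A molecule, had 1.74 FPKM in TIC against 0.0460 in NTC, about 41 reads and 1 read, a ratio of 37.9 with a counting interval of 7.16 to 1707. H2-Ab1, its beta chain, had 1.18 against 0.0924 FPKM, about 30 and 2 reads, a ratio of 12.8 (3.92 to 133). H2-Eb1 had 0.410 against 0.242 FPKM, and H2-Eb2 and the pseudogene H2-Ea-ps were listed at 0 in both. Both chains of I-A were thus read mainly in TIC, at levels far below those of class I.

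Cd74, the invariant chain that guards class II molecules, had 2.52 against 0.338 FPKM, a ratio of 7.44 (3.92 to 16.5) from about 74 and 10 reads. Its log2 ratio of 1.39 was 0.49 with 5 FPKM added. The H2-DM genes, which load class II molecules, were present in both libraries at similar levels. H2-DMb1 had 5.90 against 6.39 FPKM, H2-DMb2 4.44 against 3.15 and H2-DMa 2.08 against 1.64, and 27.2% of the H2-DMb1 windows also occur in H2-DMb2. Centred on the median gene, H2-DMb1 had a log2 ratio above 0. H2-Oa had 0.345 against 0.218 FPKM and H2-Ob was listed at 0 in both.

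Markers of leukocytes, among which the main makers of class II are found, were read beside these genes. Ptprc, the pan-leukocyte antigen CD45, and Laptm5 were listed at 0 in both libraries. Of the 7 leukocyte markers, 5 were listed at 0 in TIC and 2 in NTC, and the sum of 68.4 against 5.02 FPKM was mostly Arhgdib (64.8 against 4.67) with Coro1a (3.65 against 0.0771). Among 13 macrophage markers, which summed to 2.75 against 2.39 FPKM, 8 were listed at 0 in TIC and 7 in NTC, with Emr1, Fcgr1, Tyrobp and the C1q genes at 0 in both. The 9 dendritic cell markers summed to 3.93 against 1.05 FPKM, of which Ccr7 was 3.67 against a listed 0, while Flt3, Clec9a and Cd209a were at 0 in both. The 7 B cell markers summed to 0.705 against 0.251 FPKM, with Ms4a1 and Pax5 at 0 in both, and the 9 T and NK cell markers to 0.615 against 0.459, with Cd3e and Cd8a at 0 in both. An exact 0 in such a table is not read as absence, since Ndufs5, a respiratory gene that most cells express, was also listed at 0 in both libraries.

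**Figure D4:**
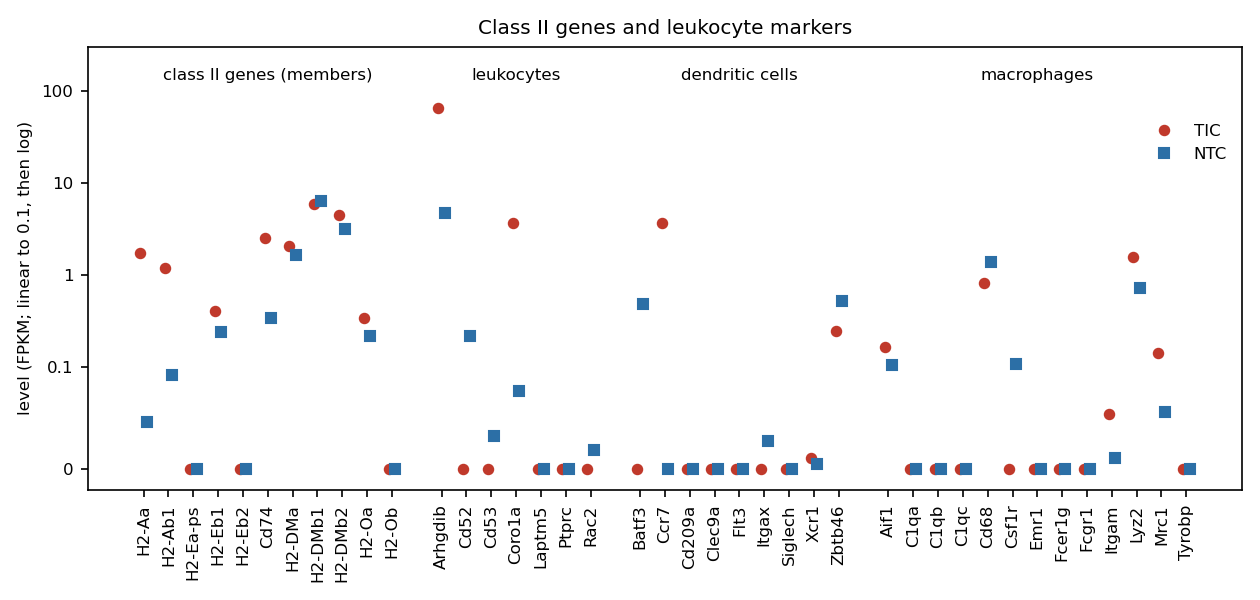
Levels (FPKM, linear to 0.1 and logarithmic above) of the 11 class II genes of the set and of markers of leukocytes, dendritic cells and macrophages in TIC (circles) and NTC (squares). H2-Aa, H2-Ab1 and Cd74 lie above 1 FPKM in TIC and below 0.4 FPKM in NTC, and most leukocyte markers lie at or near 0 in both.

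Other cell types differed with the groups as well. The 6 basal mammary markers summed to 3646 FPKM in TIC against 36.7 in NTC, and the 6 luminal ones to 174 against 3362. The 7 fibroblast markers summed to 174 against 2.44 FPKM, mostly Dcn (152 against 1.51). Of these 7, 4 were measured, and 3 were below that level: Col1a1 (0.459 against 0.339 FPKM), Col3a1 (0.221 against a listed 0) and Lum (0.573 against a listed 0). The 6 endothelial markers, none of them measured, summed to 3.16 against 0.351 FPKM, with Kdr at 1.61 against a listed 0. The part of these cell types in the differences above was not tested, and in bulk samples fewer cells of a type and less RNA per cell cannot be told apart.

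The cathepsins and other enzymes that cut antigen for class II were lower in TIC or mixed. Of 6 measured, 3 were at least 2-fold lower (13.8% of all measured genes). Ctsh, an aminopeptidase of lysosomes, had 1.36 FPKM in TIC against 103 in NTC, and Ifi30, which reduces disulphide bonds in antigens, had 25.7 against 80.9. Ctsl, an endopeptidase that also acts on the invariant chain, had 125 against 68.5 FPKM and the asparaginyl protease Lgmn 13.2 against 9.37. Ctss, the main enzyme for the invariant chain in professional presenting cells, stood at 0.186 FPKM in NTC and was listed at 0 in TIC.

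The remaining genes of the set were near or below the limit. H2-Q2 had 0.130 FPKM in TIC against 1.41 in NTC, about 3 and 39 reads, a ratio of 0.0923 (0.0157 to 0.249). H2-T24 had 1.32 against 0.659 FPKM, H2-T9 0.455 against 1.17, H2-Bl 0.167 against 0.267 and H2-T3 0.0245 against 0.0235, about 1 read in each. Of the 24 genes below the limit, 14 were listed at 0 in both libraries, and 11 of these were H2-M genes, namely H2-M1, H2-M2, H2-M5, H2-M9, H2-M11 and the 6 of the H2-M10 group. H2-M3 was the only one of the 12 H2-M genes listed above 0. H2-Ke2 (24.6 against 37.1 FPKM) and H2-Ke6 (6.92 against 11.9) bear the H2- prefix from their position and encode a prefoldin subunit and a steroid dehydrogenase, not MHC molecules. Without them the median log2 ratio of the set was 0.06.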

How the data were processed

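RNA was extracted from sorted cells with a column kit, amplified to cDNA from a small input and made into libraries, per the labels' protocols. The authors deposited FPKM per gene. Per the submitters' processing notes, the tools were Cufflinks, Cuffdiff, TopHat 1.4.0 and CASAVA 1.8.2 and the build was mm9, with no roles stated. The heading of the locus column names another build, but the loci are of mouse genes. The sources used here do not say how reads shared by near copies were assigned. The mouse reference genome is of C57BL/6, and FVB carries another H2 haplotype, whose part in the levels was not tested.

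FPKM were read as deposited, and no count model was fitted. Ratios were log2((TIC + 1)/(NTC + 1)) over the 12004 genes that averaged at least 1 FPKM. The value of 1 read was taken as the median FPKM × kb, between 0.035 and 0.065, of olfactory and vomeronasal receptor genes up to 1.5 kb (0.0476 in TIC, 23 genes, and 0.0463 in NTC, 39 genes), so depth is known only roughly. Reads per gene used the longest coding transcript of GENCODE M21, whose transcripts also gave the shared windows. Python 3.11.15, pandas 2.3.3 and SciPy 1.17.1 were used. Ratios were tested on simulated data, with differences larger than 2-fold planted in genes that averaged 5 FPKM or more. Motif searches were tested on short written sequences. Every measured gene of the set was named, with up to 2 genes of each related list in each direction, and Irf1, Ifnar2, Ctss, Cd274, Cd86, Cd40, Ndufs5 and the markers singled out were chosen after their values were seen. The set, the lists and the markers were chosen with earlier results of these data known. A planned comparison of proteins was not made, and some single-gene values are not reported here. Other pseudocounts, filters, scalings and memberships were tried.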

Additional observations from a re-analysis of the deposited data

How the results depend on the processing

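With 9 alternatives, the number of genes of the set at least 2-fold higher in TIC stayed between 4 and 7, except for 3 among the 20 genes that averaged 5 FPKM or more. Among all genes the share higher moved too, from 9.05% with a pseudocount of 5 FPKM to 16.3% after centring, so nothing is read from these counts. The number at least 2-fold lower was 3 as reported and ran from 0 to 4. It was 0 with a pseudocount of 5 FPKM, 2 among genes that averaged 5 FPKM or more and 4 with no filter on low values. After centring on the median gene, or with both libraries scaled to the same upper quartile, it was 1, and only Cd1d1 passed. Among all genes the share lower ran from 7.67% with a pseudocount of 5 FPKM to 16.4% with one of 0.1 FPKM. Centring moves every ratio by 0.16. The median log2 ratio of the set ran from -0.13 to 0.16, so its sign depended on the setting. Summing genes that share a locus, an alternative chosen after seeing the data, left 6 higher and 3 lower. Across 4 of these settings 27 of the 32 measured genes kept their side of the 2-fold limits, and Cd1d1, Cd74, Nlrc5, Tap2 and Tapbp did not. No gene at least 2-fold different changed direction. This could not have come out otherwise, since a pseudocount keeps the sign and both scalings move ratios by far less than 2-fold. With 1 library per group no paired fit or left-out replicate was possible. Depth limits the 5 class II molecules, which rest on 41 reads or fewer in TIC.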

Other observations

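Surface ligands that act beside antigen presentation were read as well, from lists written with earlier results of these data known. Of 8 costimulatory and checkpoint ligands, 3 were measured. Vtcn1, the inhibitory ligand B7-H4, had 0.0626 FPKM in TIC against 47.0 in NTC, and Cd276, the related B7-H3, had 50.3 against 22.3. Icosl had 1.87 against 1.86 FPKM. Cd274, the ligand PD-L1, had 0.0569 against 0.195 FPKM, and Cd86 was listed at 0 in both libraries. Cd40 stood at 1.06 FPKM in TIC against a listed 0 in NTC.

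Of 10 ligands of receptors on natural killer cells, 4 were measured, and all 4 had lower values in TIC, where 59.1% of all measured genes did. Their median log2 ratio was -0.75, and Pvr, with 5.51 against 5.66 FPKM and a log2 ratio of -0.03, was above the median gene at -0.16. H60b, a ligand of NKG2D, had 0.153 FPKM in TIC against 2.31 in NTC, and Ulbp1, another, had 2.90 against 5.77. The 5 Raet1 genes were at 0.1 FPKM or below in both libraries.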
